A study of Mus musculus with 2 samples.

Results

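The collagen gene family was followed in osteoblastic cells that lack the transcription factor Ebf2. The members were the probe sets whose platform annotation gives exactly 1 gene symbol of the form Col, a number, a and a chain number, which gave 82 probe sets for 42 collagen alpha chain genes out of 18194 genes on the array. Signals came from Affymetrix Mouse Genome 430 2.0 arrays, with 1 array for heterozygous (Ebf2+/-) and 1 array for knockout (Ebf2-/-) cells. Both preparations came from the tibia and femur of C57Bl/6 embryos at E18.5, carried the Ebf2-lacZ marker, were loaded with FDG (a substrate that fluoresces once beta-galactosidase has cut it), were sorted for that marker, and were then expanded in alpha MEM and 10% serum with no passage. Per genotype 3 mice are named, and pooling of their RNA is not stated. The reference is a heterozygote with 1 altered allele, since wild-type cells were not analysed here. With a single array per genotype no p-value can be computed, so every difference below is a measured ratio of 2 arrays without a replicate check.

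Collagens are secreted proteins in which alpha chains wind around each other into a triple helix built on a repeated glycine-led triplet. Fibril-forming chains (types I, II, III, V and XI) make the tensile fibrils of bone, skin and cartilage. Other types sit on fibril surfaces (IX, XII, XIV, XVI), build networks (IV, VIII, X) or microfibrils (VI), or span the cell membrane (XIII, XVII, XXIII, XXV). Bone matrix is mostly collagen I, and cartilage matrix is mostly collagen II with IX and XI, so the 2 groups mark different skeletal tissues.

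Upstream sequences from RefSeq (GRCm38.p6) are shown for 7 collagen genes whose signals differed between the arrays. They are printed so that the letters before the start can be read beside the ratios of genes that were higher (Col1a2, Col3a1, Col5a3, Col8a1) and lower (Col9a1, Col18a1, Col4a5) in the knockout. They lie at chr6:4505368-4505617 (plus strand), chr1:45311288-45311537 (plus), chr9:20815118-20815317 (minus), chr16:57754738-57754987 (minus), chr1:24177360-24177588 (plus), chr10:77166531-77166780 (minus) and chrX:141475169-141475369 (plus). Each runs 5′ to 3′ towards the annotated start from 250 bases before it, less any bases inside an annotated gene, and capitals mark a CCAAT box (CCAAT) or a TATA box (TATAAA) on either strand.
Col1a2: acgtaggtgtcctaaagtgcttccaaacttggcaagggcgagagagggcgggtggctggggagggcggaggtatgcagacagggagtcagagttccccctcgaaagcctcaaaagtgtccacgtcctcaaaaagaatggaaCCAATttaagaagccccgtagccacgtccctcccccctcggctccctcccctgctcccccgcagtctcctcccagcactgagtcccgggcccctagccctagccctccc
Col3a1: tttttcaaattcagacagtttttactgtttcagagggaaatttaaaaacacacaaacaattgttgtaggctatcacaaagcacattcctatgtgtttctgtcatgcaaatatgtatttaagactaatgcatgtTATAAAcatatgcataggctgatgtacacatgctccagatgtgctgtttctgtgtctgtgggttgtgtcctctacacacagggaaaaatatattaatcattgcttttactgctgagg
Col5a3: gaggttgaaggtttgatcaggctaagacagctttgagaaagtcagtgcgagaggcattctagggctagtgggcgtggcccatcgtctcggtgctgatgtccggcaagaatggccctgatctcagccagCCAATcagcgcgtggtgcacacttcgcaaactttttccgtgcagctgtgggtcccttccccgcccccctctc
Col8a1: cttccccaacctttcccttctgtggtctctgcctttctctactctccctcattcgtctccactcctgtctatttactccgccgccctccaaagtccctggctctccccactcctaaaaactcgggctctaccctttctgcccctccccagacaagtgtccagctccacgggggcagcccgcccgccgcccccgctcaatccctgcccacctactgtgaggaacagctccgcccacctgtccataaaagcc
Col9a1: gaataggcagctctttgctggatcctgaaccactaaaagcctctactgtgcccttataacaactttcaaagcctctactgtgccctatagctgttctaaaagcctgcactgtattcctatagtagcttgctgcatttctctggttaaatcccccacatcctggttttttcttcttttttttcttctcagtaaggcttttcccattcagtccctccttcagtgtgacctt
Col18a1: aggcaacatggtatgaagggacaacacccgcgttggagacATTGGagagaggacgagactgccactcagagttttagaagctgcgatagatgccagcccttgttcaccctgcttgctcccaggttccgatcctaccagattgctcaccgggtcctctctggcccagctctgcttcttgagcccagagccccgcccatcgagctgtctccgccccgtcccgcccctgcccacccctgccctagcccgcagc
Col4a5: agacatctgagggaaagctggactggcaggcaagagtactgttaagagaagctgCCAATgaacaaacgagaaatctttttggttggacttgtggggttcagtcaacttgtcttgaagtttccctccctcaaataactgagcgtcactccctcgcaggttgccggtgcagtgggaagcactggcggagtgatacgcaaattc

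The letters CCAAT stood 109 bases before the start in Col1a2 and 122 bases before it in Col5a3, both of which had the higher signal in the knockout. They also stood 210 bases before the start in Col18a1 (as the reverse complement) and 196 bases before it in Col4a5, both of which had the lower signal. TATAAA stood 117 bases before the start in Col3a1, and the sequences printed for Col8a1 and Col9a1 held neither. Col9a1 and Col18a1 have 2 annotated starts each, and the outermost is shown. Though its printed bases lack CCAAT, Col9a1 is among the collagen genes with CCAAT in a window of 300 bases. Over 38 collagen windows of 300 bases (35 genes, 23 of them measured), 34.2% held CCAAT and 13.2% held TATAAA, against 37.4% and 13.6% of all 32851 windows. The core letters of the EBF binding motif, CCCNNGGG, were in 21.1% of the collagen windows and 13.7% of all windows. The collagen genes with this core were Col4a2, Col9a2, Col11a2 and Col23a1 among the measured genes, and Col6a4, Col6a5, Col6a6 and Col17a1 besides. The same core with a T before it and an A after it was in 0 of the 38 collagen windows and in 0.904% of all windows. A match is a description of letters and not of binding.

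The deposited values are MAS5 signals, a linear intensity, and the arrays have the same mean once the lowest and highest 2% of values are left out. The background floor was the 95th percentile of 86 probe sets of sensory receptor genes (odour, pheromone and taste), 17.8 for the heterozygote and 23.8 for the knockout. The 3 probe sets of Ebf2 itself lay near these floors, at 24.9, 13.7 and 14.4 on the heterozygote array against 20.6, 14.4 and 25.1 on the knockout array. Its first probe set was above the floor on the heterozygote array only and its last on the knockout array only, so they differ in direction and do not check the genotype labels. The brightest probe set (by mean log2 signal) stood for its gene. A gene was called measured when above the floor on at least 1 array, and had lower values set to the floor before the ratio was taken. Ratios from different probe sets of the same gene had a pooled SD of 0.44 on the log2 scale (a factor of 1.36) over 4119 genes and of 0.48 over 16 collagen genes, a spread that holds nothing of how animals or cultures vary. The 3′ over 5′ ratio of the beta-actin controls, a sign of RNA integrity, was 1.97 for the heterozygote and 2.79 for the knockout. Of 12 osteoblast marker genes, 7 had a probe set with 1 symbol. Sp7 (83.7 and 53.3), Alpl (25.4 and 51.8) and Dlx5 (43.7 and 82.99) were above the floor on both arrays, while Ibsp, Dmp1, Phex and Ifitm5 were below it on both, and the remaining genes of the list were not analysed here.

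Cartilage collagens had the lower signal in the knockout, and most other measured collagens had the higher signal. Of the 42 collagen genes, 30 were measured, 26 of them on both arrays. On the knockout array 8 of them had a signal past 2-fold higher (Col1a1, Col3a1, Col5a3, Col8a1, Col12a1, Col14a1, Col23a1 and Col26a1) and 6 a signal past 2-fold lower (Col2a1, Col4a5, Col9a1, Col9a3, Col11a2 and Col18a1). Those are 26.7% and 20.0% of the measured collagens, against 6.30% and 3.46% of all 11785 measured genes past 2-fold in the same direction. Among the 26 collagens above the floor on both arrays, 7 were higher and 6 lower by this measure, against 5.90% and 3.02% of 10057 such genes. As a mean over all probe sets of a gene, those below the floor included, 27 collagens were measured. Of these, 2 (Col3a1 and Col8a1) were past 2-fold higher in place of 8, and 5 lower. Under that setting 752 of all 10352 measured genes were past 2-fold higher and 388 lower, so the higher share of collagens was close to that of all genes. The median log2 ratio of knockout over heterozygote was 0.53 over the measured collagens and 0.03 over all measured genes. By class, the median was 0.98 for the fibrillar collagens of bone and skin, -2.05 for the cartilage collagens, 0.07 for the basement membrane collagens, 0.61 for collagen VI and 0.95 for the rest. The basement membrane median changed sign, to -0.10, when the arrays were scaled to the spike-in transcripts. That scaling subtracts 0.18 from every log2 ratio and leaves 6 collagens past 2-fold higher and 6 lower, and over all genes 528 were past 2-fold higher and 625 lower in place of 742 and 408. The plot of signals by class shows these values.

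**Figure D1:**
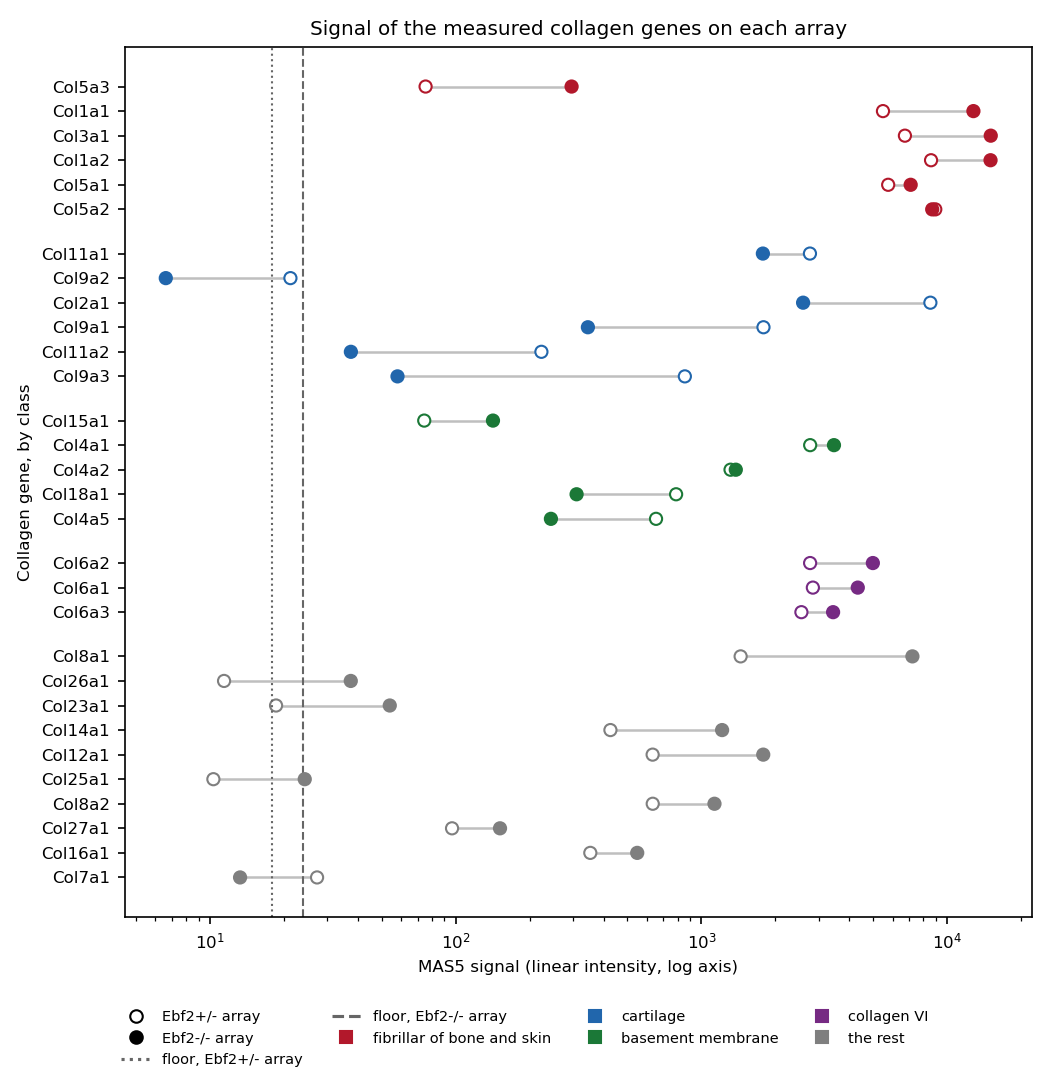
MAS5 signal of the 30 measured collagen genes on the Ebf2+/- array (open circles) and the Ebf2-/- array (filled circles), on a log axis, in colours by class, with 1 array per genotype and the background floor of each array as a vertical line. All 6 measured cartilage collagens lie to the left on the knockout array, Col9a2 among them below its floor, and 5 of 6 fibrillar collagens of bone and skin lie to the right.

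All 6 fibrillar chains of bone and skin were above background on both arrays, 5 with the higher signal in the knockout under each scaling tried. Col1a1, the larger part of the collagen I trimer, read 5478 (heterozygote) and 12784 (knockout), a 2.33-fold higher signal. Its second probe set read 1375 and 982, so the direction of Col1a1 differs between its probe sets. Col1a2, the other chain of collagen I, read 8597 and 15008 (1.75-fold higher), and 8366 and 12649 by its second bright probe set. Both bright probe sets of Col1a2 were therefore higher, by less than 2-fold. Its last probe set read 23.3 in the heterozygote against 18.6 in the knockout, the latter under the floor.

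Col3a1 forms the thin fibrils of skin, vessels and loose connective tissue. It read 6729 and 15039, which is 2.23-fold higher, and 416 and 1682 by its dimmer probe set, which is 4.04-fold higher. Both probe sets point the same way, with the dimmer one giving the larger ratio. The highest signal of any probe set on the knockout array was 18361, so the knockout signals of Col1a2 and Col3a1 lay near the top of the scale, and whether they were compressed there was not tested.

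Collagen V chains start fibril assembly and limit fibril width. Col5a1 read 5752 and 7102 (1.23-fold higher), and its 3 probe sets ranged from 0.04 to 0.63 on the log2 scale. Col5a2 was nearly level, at 8942 and 8690, and at 1763 and 1741 by its second probe set. Col5a3, the rarer chain, had a much lower signal of 75.4 in the heterozygote against 296 in the knockout, a 3.93-fold higher value. Its other probe set was below the floor on both arrays (0.57 and 0.72), so the ratio of Col5a3 rests on 1 probe set. Among the collagen V chains, then, Col5a3 was past 2-fold and Col5a1 and Col5a2 were not. The Col5a2 gene lies next to Col3a1 on chromosome 1, and their log2 ratios were -0.04 and 1.16.

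The 5 cartilage collagens with a ratio all had the lower signal in the knockout, under each scaling tried. Col2a1, the main fibril of cartilage, read 8542 in the heterozygote against 2592 in the knockout (3.30-fold lower) by its only probe set. Col11a1 and Col11a2 encode chains that form the core of cartilage fibrils together with collagen II. Col11a1 read 2764 and 1778 (1.55-fold lower), and 2427 and 1487 by its second probe set. Col11a2 read 223 and 37.4, a 5.96-fold lower value with the knockout signal close to the floor of 23.8. The chains of collagen XI therefore differed in size of ratio, by a factor of 3.84 between Col11a1 and Col11a2.

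Collagen IX coats the surface of collagen II fibrils. Col9a1 read 1788 and 345 (5.18-fold lower), and 289 and 87.0 by its other probe set (3.32-fold lower). Which of the annotated starts of Col9a1 each probe set reads is not known here. Col9a3 had the largest ratio of all collagens in either direction. It read 856 and 58.0 (14.8-fold lower) and 454 and 25.8 by its second probe set (17.6-fold lower). That second knockout signal was just above the floor of 23.8, and the last probe set was below the floor on both arrays. Col9a2 was dim, at 21.3 in the heterozygote against 6.61 in the knockout, and has no fold because its heterozygote signal did not exceed the knockout floor. The class median of -2.05 includes Col9a2 at its floor-set value and was -2.37 without it. Col10a1, the collagen of hypertrophic cartilage, was below the floor on both arrays (2.41 and 2.43).

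Other cartilage genes were read beside these. Of 14 chondrocyte markers that are not collagens 10 were measured: 4 passed 2-fold lower and 1, Epyc, passed it higher (117 and 699). Of all measured genes 3.46% passed 2-fold lower and 6.30% higher. In either direction at any size, 6 of the 10 were lower and 3 higher, and 1 had no fold. As a mean over probe sets above the floor on both arrays, 4 of 8 were lower and 4 higher. The probe set used for Epyc ends in _a_at. Without probe sets ending in _s_at, _x_at or _a_at, 4 of 10 measured markers passed 2-fold lower and 0 passed it higher. The median log2 ratio of the list was -0.35, and 0.11 as a mean over probe sets. The summed signal of the list was 5208 in the heterozygote against 3094 in the knockout, and 2435 against 2612 without Cnmd, so the direction of the sum rests on that gene. Hapln1, which links aggrecan to hyaluronan, was 8.19-fold lower, Cnmd (chondromodulin) 5.76-fold lower, the proteoglycan Acan 4.85-fold lower and the transcription factor Sox6 2.09-fold lower. Sox9, the transcription factor that drives Col2a1 in chondrocytes, read 213 and 209 by its brightest probe set. It was not among the lower members as a mean over probe sets. Matn1, Matn3, Snorc and Ihh were below the floor on both arrays. In a bulk sample, fewer cells of a type and less RNA per cell cannot be told apart, and the part of chondrocyte number in the cartilage collagen ratios was not tested.

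**Figure D2:**
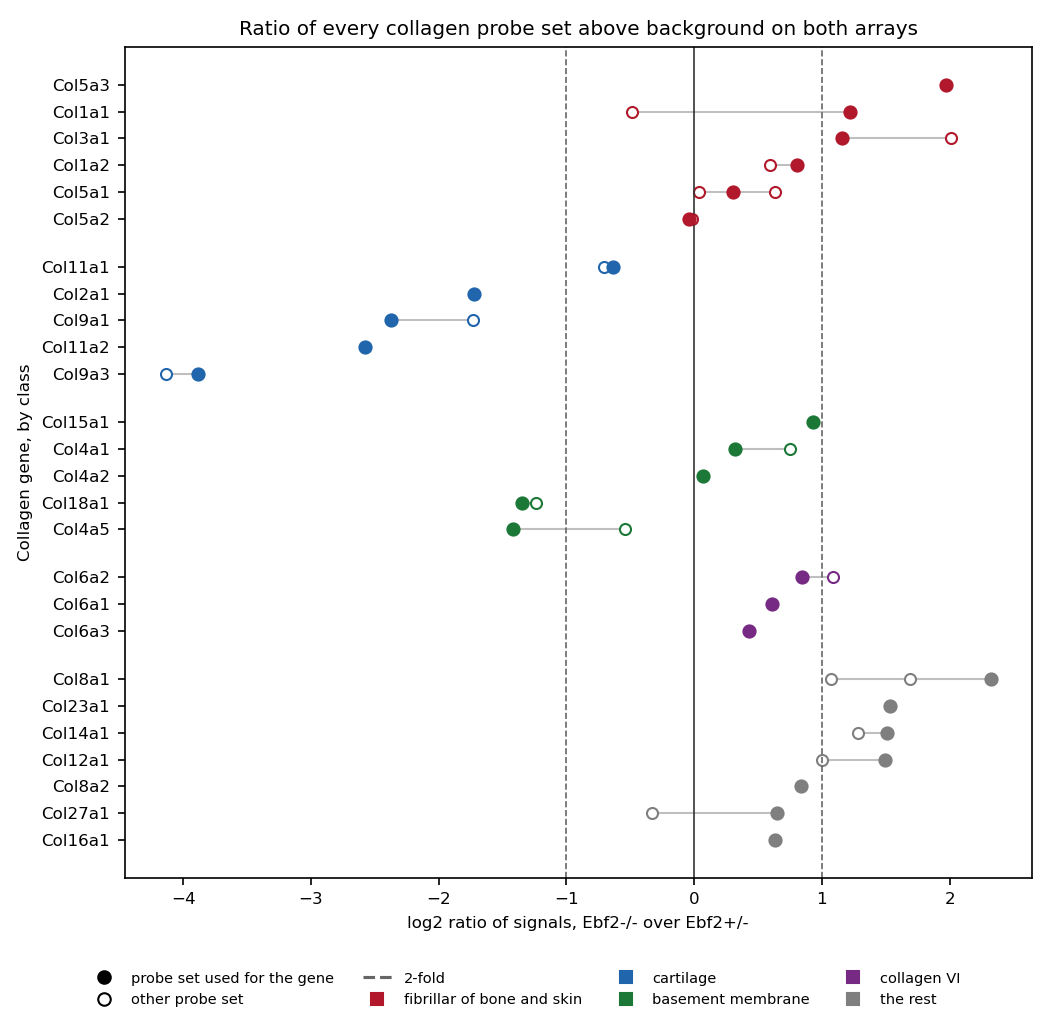
The log2 ratio (Ebf2-/- over Ebf2+/-) of all 44 collagen probe sets above background on both arrays, 1 row per gene in colours by class, with the probe set used for the gene filled, other probe sets open and 2-fold as dashed lines. Of 16 genes with several such probe sets 14 have all of them on the same side of 0, and Col1a1 and Col27a1 do not.

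Basement membrane collagens were split. Col4a1 and Col4a2 form the common network of nearly all basement membranes and lie side by side on chromosome 8. Col4a1 read 2769 and 3461 (1.25-fold higher) and 475 and 800 by its other probe set, and Col4a2 read 1313 and 1380. Both were under 2-fold, and Col4a2 had the lower signal in the knockout with spike-in scaling (log2 ratio -0.10). Col4a5, a chain of more specialised basement membranes, read 653 and 244 (2.68-fold lower), and 146 and 100.3 by its other probe set, which is under 2-fold. Its known partner chains Col4a3, Col4a4 and Col4a6 were below the floor on both arrays.

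Col15a1 and Col18a1 encode related collagens that lie at the edge of basement membranes, and the end fragment of collagen XVIII is endostatin. Col15a1 read 74.5 and 142 (1.90-fold higher), and Col18a1 read 789 and 310 (2.54-fold lower), with 381 and 161 by its second probe set. The pair therefore went opposite ways, Col18a1 past 2-fold by both of its probe sets.

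Collagen VI forms beaded microfibrils around cells. All 3 chains of its main trimer had the higher signal in the knockout, each by less than 2-fold. Col6a1 read 2840 and 4327 (1.52-fold higher), Col6a2 read 2768 and 4983 (1.80-fold higher) and Col6a3 read 2551 and 3433 (1.35-fold higher). The second probe set of Col6a2 read 1143 and 2428, which is just past 2-fold. The ratios of the 3 chains lay within a factor of 1.34 of each other, and all were higher under each scaling tried. Col6a4 and Col6a5 were below the floor on both arrays.

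Of the remaining classes, 10 of 16 genes were measured, of which 5 passed 2-fold higher and 0 passed it lower. Col8a1, a network-forming chain of vessel walls and of Descemet's membrane in the eye, had the highest ratio of all collagens. It read 1444 in the heterozygote against 7218 in the knockout (a log2 ratio of 2.32), and its other probe sets read 1502 and 4852 (3.23-fold) and 204 and 428 (2.10-fold). All 3 probe sets of Col8a1 were past 2-fold, although their ratios differed by a factor of 2.38. Its sister chain Col8a2 read 633 and 1130 (1.78-fold higher), so the chains of collagen VIII differed by a factor of 2.80.

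Collagens XII, XIV and XVI lie on the surface of fibrils. Col12a1, found in tendon, ligament and periosteum, read 633 and 1784 (2.82-fold higher) and 293 and 588 by another probe set (2.00-fold), while its other 2 probe sets were below the floor. Col14a1, which limits fibril growth in tendon and skin, read 426 and 1213 (2.85-fold higher) and 121 and 294 by its other bright probe set (2.43-fold). Col16a1 read 353 and 548 (1.55-fold higher). Col12a1 and Col14a1 were thus past 2-fold by each of their probe sets above background.

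The other members were dim. The transmembrane collagen Col23a1 read 18.6 and 53.9 (2.90-fold higher), with the heterozygote signal just above the floor of 17.8. Its other probe sets were below the floor on both arrays. With a pseudocount of 50 its log2 ratio was 0.60 in place of 1.54. Col26a1 was above the floor in the knockout only, at 11.4 and 37.4, and was at least 2.10-fold higher. Col25a1, the transmembrane collagen also named CLAC-P, read 10.3 and 24.3, at least 1.36-fold higher. Col7a1, the anchoring fibril collagen of skin, was above the floor in the heterozygote only, at 27.3 and 13.3, and was at least 1.15-fold lower; with the higher floor its floor-set log2 ratio was 0.24 in place of -0.20. Col27a1, a fibrillar chain of developing cartilage, read 96.6 and 151 (1.57-fold higher) by the probe set used and 99.1 and 78.9 by the other, so its direction differs between probe sets.

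Of the 12 collagen genes that were not measured, 11 had no probe set above the floor on either array. The exception was Col22a1, a collagen of tissue junctions. A probe set not used for the gene read 25.5 in the heterozygote against 2.19 in the knockout. The probe set used, the brightest by mean log2 signal, read 12.4 and 23.0, below the floor on both arrays. The unmeasured genes not named above were Col13a1, Col17a1, Col19a1, Col20a1 and Col24a1. The collagen genes Col6a6 and Col28a1 of the reference table were not analysed here.

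Chains that assemble in the same molecule were set side by side. By the brightest probe sets the ratios of the chains of collagen I lay within a factor of 1.34 of each other, but the second probe set of Col1a1 went the opposite way and was a factor of 2.44 from Col1a2. The ratios of collagen IV a1 and a2 lay within 1.19 and those of collagen VI within 1.34, both below the 1.40-fold spread (1 pooled SD) between probe sets of the same collagen gene. The chains of collagen V spanned a factor of 4.04 (Col5a2 to Col5a3), those of collagen XI with Col2a1 3.84, those of collagen IX 2.85 (Col9a1 to Col9a3) and those of collagen VIII 2.80.

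Genes that make, process or bind collagen were read from 5 lists. Their counts stand beside 46.9% of all measured genes higher and 47.9% lower in the knockout, with 6.30% past 2-fold higher and 3.46% past 2-fold lower. Of 17 measured genes of procollagen folding and hydroxylation, all 17 had the higher signal in the knockout (16 with spike-in scaling, where Fkbp14 was lower), and 1 passed 2-fold, with a median log2 ratio of 0.52. Without probe sets ending in _s_at, _x_at or _a_at, 15 genes were measured, 14 of them higher and Mia3 lower. Plod2, which hydroxylates the lysines used for cross-links, read 554 and 1376 (2.48-fold higher). Serpinh1, the collagen chaperone HSP47, read 4468 and 8793 (1.97-fold higher), Ppib, a prolyl isomerase, 5075 and 8654 (1.71-fold higher), and the proline hydroxylase subunit P4ha2 476 and 763 (1.60-fold higher).

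Of 8 measured genes of procollagen cleavage and cross-linking, 6 had the higher and 2 the lower signal, and 1 passed 2-fold in each direction, beside 6.30% and 3.46% of all measured genes. The median log2 ratio was 0.36. The proteinase Tll1 read 23.3 and 75.1 (3.22-fold higher) and the cross-linking enzyme Lox 6001 and 11266 (1.88-fold higher), while Loxl4, a relative of Lox, read 96.4 and 39.3 (2.45-fold lower). Bmp1, which removes the C-terminal propeptide, read 171 and 276 by its brightest probe set. As a mean over all probe sets, those below the floor included, Bmp1 was lower, and the list had 5 genes higher and 3 lower. Over probe sets above the floor on both arrays Bmp1 was not among the lower genes.

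Of 9 measured genes of collagen breakdown and its inhibitors, 3 passed 2-fold higher and 0 passed it lower, beside 6.30% and 3.46% of all measured genes, and the median log2 ratio was 0.42. These were the serine protease Fap (61.1 and 195, 3.19-fold), the collagenase Mmp13 (92.3 and 280.1, 3.04-fold) and the inhibitor Timp3 (2502 and 7480, 2.99-fold). Mmp14, a membrane-bound collagenase, read 848 and 1218 (1.44-fold higher).

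Of 7 measured collagen receptors 3 had the higher and 4 the lower signal (2 and 5 with spike-in scaling), with a median log2 ratio of -0.39. With all probe sets of a gene averaged, those below the floor included, 5 of 6 measured receptors had the higher signal and the median was 0.58. Averaged over probe sets above the floor on both arrays, 3 of 5 receptors were higher and 2 (Itgb1 and Ddr1) lower, with a median of 0.33. By the brightest probe set, the median was 0.16 over the 5 receptors above the floor on both arrays. The receptor kinase Ddr1 read 565 and 253 (2.23-fold lower) by the brightest of its 8 probe sets, one of a kind that can bind related transcripts. Without such probe sets the log2 ratio of Ddr1 was -0.12, and as a mean over all its probe sets it was 0.03. Its relative Ddr2, which binds fibrillar collagens, read 1103 and 1246. Itgb1, the beta chain shared by the collagen-binding integrins, read 1614 and 1227 (1.31-fold lower). Its log2 ratio was 0.74 as a mean over all 6 of its probe sets, those below the floor included. Over its probe sets above the floor on both arrays it was -0.46. Lair1, a collagen receptor of leukocytes, was at least 1.95-fold lower (46.4 and 9.90), and Itga10, the integrin chain of chondrocytes that binds collagen II, was at least 1.61-fold lower (38.4 and 13.1).

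Of 13 measured basement membrane partners 3 passed 2-fold higher and 1 passed it lower, beside 6.30% and 3.46% of all measured genes, and the median log2 ratio was 0.34 (0.16 with spike-in scaling). The laminin chain Lamc1 read 201 and 721 (3.59-fold higher), the proteoglycan Hspg2 (perlecan) 275 and 656 (2.39-fold higher) and Lama4 569 and 1173 (2.06-fold higher; 2 members remained past 2-fold in this direction with spike-in scaling). Lama1 read 67.1 and 25.2 (2.67-fold lower), with the knockout signal just above the floor.

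Markers of other cell types also differed between the arrays, where 6.30% of all measured genes were past 2-fold higher and 3.46% lower. Of 11 fibroblast and mesenchymal progenitor markers 8 were measured and all 8 had the higher signal in the knockout, 6 at least 2-fold (5 of the 7 above the floor on both arrays), with a median log2 ratio of 2.01 and a summed signal of 6074 against 15949. Pi16 and Lepr were below the floor on both arrays. Of 12 macrophage and leukocyte markers 11 were measured and all 11 were at least 2-fold lower, with a summed signal of 7805 and 1826. As a mean over all probe sets 9 of the 11 passed 2-fold lower, and 10 over probe sets above the floor on both arrays. Itgam was below the floor on both arrays. Of 9 Schwann cell markers 7 were measured, 3 of them (Mbp, Erbb3 and Foxd3) on the heterozygote array only. Of the 4 above the floor on both arrays 3 passed 2-fold lower, and the summed signal of the list was 1126 and 327. Of 10 endothelial markers 3 were measured, and Pecam1, Cdh5, Tie1, Emcn, Vwf, Cldn5 and Erg were below the floor on both arrays. Adipocyte markers (6 of 9 measured) had 5 members past 2-fold higher and 1 lower (4 and 0 among those above the floor on both arrays), with summed signals of 846 and 2897. Tendon markers (7 of 8 measured) had 3 past 2-fold higher and 0 lower (2 and 0 among those above the floor on both), with summed signals of 13430 and 12482, or 3709 and 6512 without Fmod, while 2 of 9 skeletal muscle and 2 of 7 epithelial markers were measured. The part of any of these cell types in the collagen ratios was not tested.

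**Figure D3:**
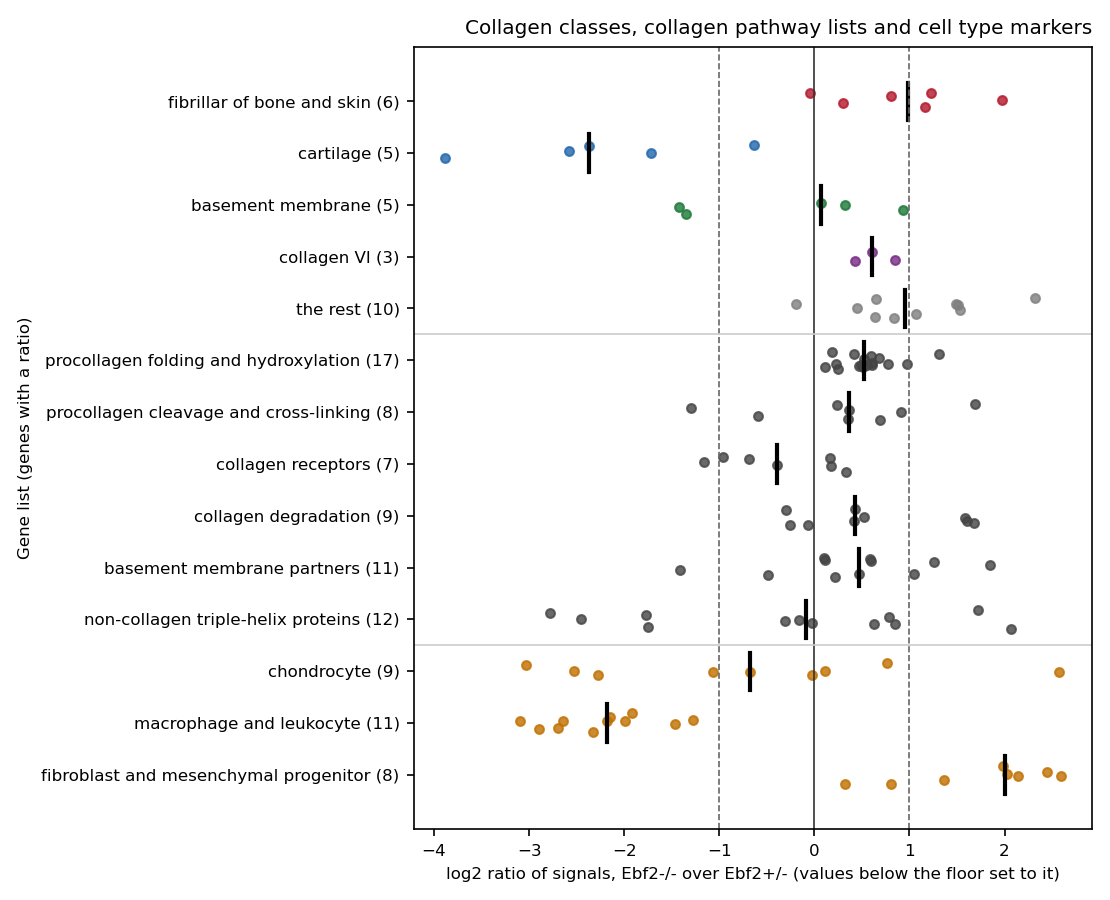
The log2 ratio (Ebf2-/- over Ebf2+/-) of each gene with a ratio in the 5 collagen classes, the 6 lists of collagen-related genes and 3 lists of cell type markers, with the number of genes in brackets, the list median as a black bar and 2-fold as dashed lines; points are spread vertically for legibility. The cartilage class (median -2.37 over its 5 genes with a ratio) lies to the left, and the folding and hydroxylation list lies in a narrow range to the right of 0.

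**Figure D4:**
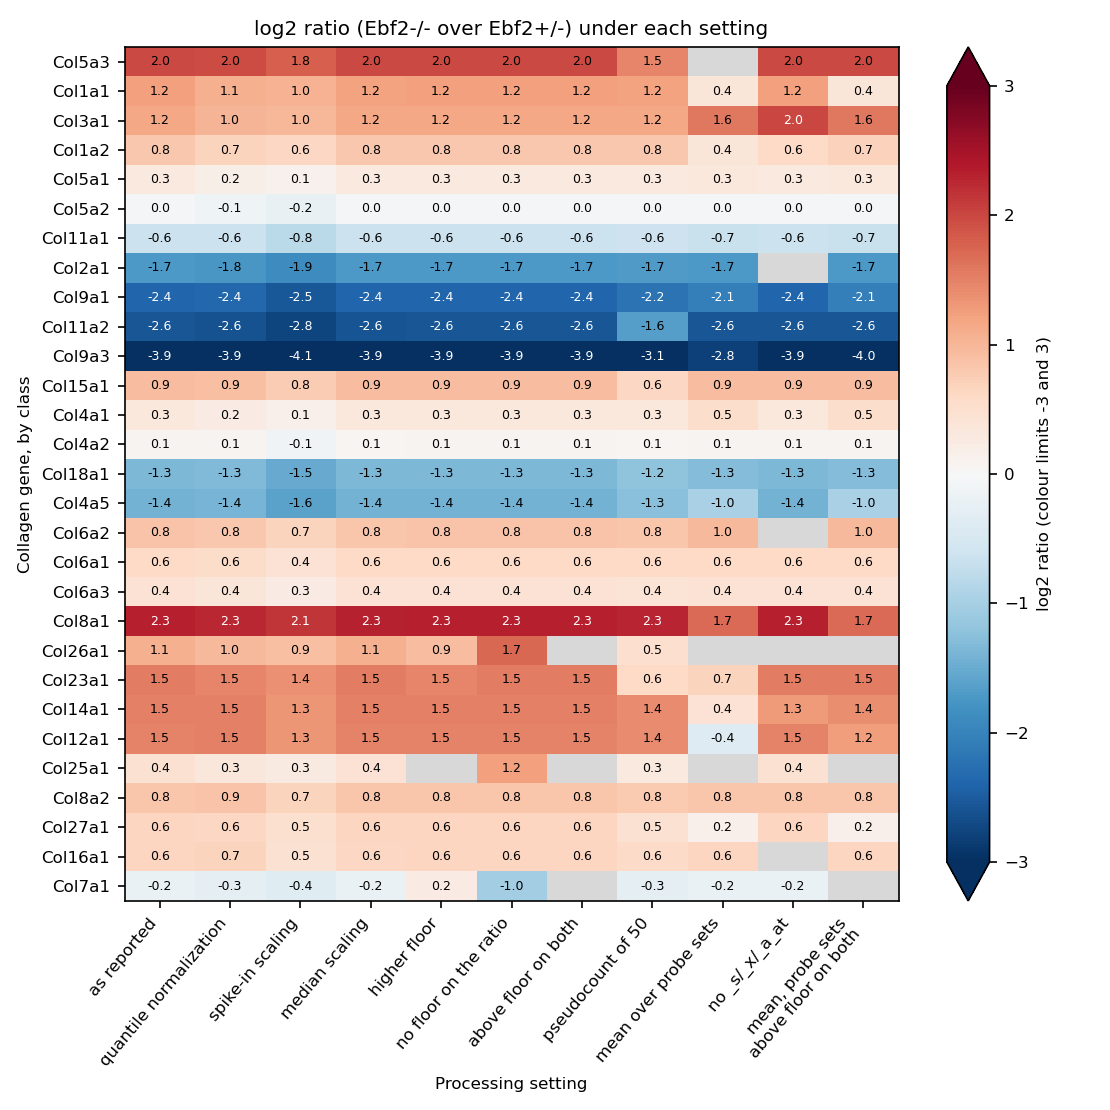
The log2 ratio (Ebf2-/- over Ebf2+/-) of the 29 collagen genes with a ratio as reported and under 10 other processing settings, with grey where a setting gives no value. Col9a3, Col9a1, Col11a2 and Col18a1 stay past 2-fold lower and Col8a1 past 2-fold higher in every column, and Col12a1 changes sign as a mean over all its probe sets.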

How the data were processed

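The deposited values are the authors' MAS5 intensity signals for 45101 probe sets on 2 arrays. The submitters' processing notes name MAS5, with its version not given in the sources used here. Probe sets were named through the platform annotation, in which 34958 probe sets had 1 symbol, 932 several and 9211 none listed, and 0 symbols changed through the gene ID. Groups came from the genotype label. All steps ran in Python 3.11.15 with NumPy 2.4.6 and pandas 2.3.3, and the gene step was tested on simulated data. Every measured collagen gene is named, and from other lists some members past 2-fold and, for pathway lists, the 4 with the largest ratios; Sox9, Ddr2, Cthrc1, the osteoblast markers and the printed promoters were picked with their values in view. The members and lists were chosen with earlier results of these data known. A gene above the floor on 1 array only has a lower bound ("at least"). Precision is limited by having 1 array per genotype. No probe set coordinates are given, since the values carry none.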

Additional observations from a re-analysis of the deposited data

How the results depend on the processing

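The counts of collagen genes past 2-fold were 8 higher and 6 lower, and under the 10 alternatives they ranged from 2 to 9 higher and from 5 to 8 lower. As a mean over all probe sets of a gene, dim ones included, 2 of 27 collagens were at least 2-fold higher, beside 752 of 10352 genes. The fibrillar median was then 0.36 and the log2 ratio of Col12a1 was -0.38 in place of 1.495. Col12a1 has 2 probe sets below the floor that enter this mean. In an alternative chosen after seeing the data, the mean over probe sets above the floor on both arrays, 6 collagens were higher and 5 lower, the fibrillar median was 0.53 and Col1a1 had a log2 ratio of 0.37. The median of the remaining classes was 1.495 over genes above the floor on both arrays, which leaves out 3 dim genes. The basement membrane median was -0.10 with spike-in scaling. Col2a1 has no value without probe sets ending in _s_at, _x_at or _a_at, since its only probe set is of that kind. Of 276 gene values under the alternatives 254 kept their sign and moved by less than the SD between probe sets, 21 moved further or changed sign, and 1 reversed. Much of this was fixed in advance. Spike-in and median scaling shift every ratio by a constant below that SD, and the floor settings leave a gene above the floors unchanged. A gene with 1 probe set cannot move when probe sets are averaged. The count of 254 is therefore no check of stability. No paired analysis was possible because each genotype has 1 array, and none can be left out. Over all genes 742 were past 2-fold higher and 408 lower, against 280 and 134 with a pseudocount of 50, 997 and 932 with no floor, and 528 and 625 with spike-in scaling. Signals near the floor (Col23a1, Col25a1, Col26a1, Col7a1, Col9a2) carry little precision.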

Other observations

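Proteins that hold a collagen-like helix without being collagens were split between the arrays. Among 12 measured genes, 2 passed 2-fold higher and 4 passed it lower in the knockout, beside 6.30% and 3.46% of all measured genes. The median log2 ratio was -0.09, and it was 0.03 as a mean over probe sets. The complement chains C1qa, C1qb and C1qc read 366, 595 and 340.2 in the heterozygote and 108, 109 and 101 in the knockout, and the macrophage scavenger receptor Msr1 read 166 and 24.1. All of these are also known as macrophage genes, and the macrophage and leukocyte list was lower on the same array. The part of macrophage number in these ratios was not tested. The ferritin receptor Scara5 read 380 and 1252 (3.30-fold higher), and the adipocyte hormone Adipoq (5.04 and 74.7, the first under the floor) was at least 4.19-fold higher. Cthrc1, a secreted protein with a short collagen repeat, read 4268 and 3458.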
